A study of Homo sapiens with 27 samples.

Results

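The S100 genes encode small calcium-binding proteins. 10 of them were followed here across 2 human invasive lobular carcinoma (ILC) cell lines before and after long-term estrogen deprivation (LTED): S100A14, S100A16, S100A8, S100A9, S100A6, S100A4, S100A10, S100A11, S100A13 and S100P. The members were chosen by name, with results of these same counts already known, and without a threshold on any value, out of 60619 genes in the deposited table and 21 S100 genes listed in it. Because of that choice, every level and fold change of these 10 genes is given as a description without a p value.

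MM134 (MDA-MB-134VI) and SUM44 are estrogen receptor-positive ILC lines, and the estrogen-independent variants were derived from them by months of growth in medium with charcoal-stripped serum, which holds little estrogen. The groups were MM134 parental cells, its variants LTED-E, LTED-D, LTED-B and LTED-A, SUM44PE parental cells, SUM44F parental cells (SUM44PE adapted to medium with whole fetal bovine serum), and SUM44 LTED-A and LTED-B, with 3 libraries in each of the 9 groups. The parental cells of all 3 cultures were deprived of hormone for 3 days before collection, so the comparisons set long against short deprivation. Up to those 3 days, MM134 and SUM44F parental cells grew in whole serum, and no library comes from cells kept with it until collection. The variants were also kept for months in another basal medium, which the parental cells had only during those 3 days. The paper names the loss of further lipophilic compounds in stripped serum as a limitation. For its lipid metabolism genes it considers such an effect unlikely, in part because of the parental cells' 3 days in that serum. SUM44F is the parental culture of the SUM44 variants. The libraries of a group are wells of 1 culture and each variant is 1 derived culture, so an SD or a p value covers the spread between wells, and what belongs to long-term deprivation cannot be told apart from what belongs to that culture.

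S100 proteins form dimers that open a binding surface when they take up calcium and then attach to other proteins, among them the annexins, ezrin and non-muscle myosin. Some members are also secreted and bind receptors such as RAGE (AGER), TLR4, CD36, basigin (BSG) and ALCAM. Most of the genes lie in a cluster on the long arm of human chromosome 1, a stretch that is often gained in breast cancer. S100A8 and S100A9 together make up calprotectin, which is abundant in neutrophils and inflamed epithelium.

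Counts summed to between 28583554 and 134882175 per library. Replicates 2 and 3 of SUM44 LTED-A agreed within sampling noise (chi-square per degree of freedom 0.312, against 2.35 to 58.3 for the other 26 pairs of replicates) and were averaged, so this variant had 2 samples. The 6 luminal markers (KRT8, KRT18, KRT19, GATA3, FOXA1, ESR1) summed to 4120 to 7994 CPM (counts relative to the TMM-scaled library total) in every sample, while the 7 markers of stratified keratinocytes (KRT5, KRT14, KRT1, KRT10, IVL, SPRR1B, DSG3) summed to 6.86 to 15.7 CPM. Most of that was KRT10, with group means of 6.73 to 14.5 CPM. DSG3 had means of 0.0756 to 0.276 CPM, KRT14 at most 0.281 (SUM44PE) and KRT5 at most 0.071 (SUM44F), and KRT1, IVL and SPRR1B had at most 1 count in every sample. In MM134 parental cells the luminal sum was largely KRT19, KRT8 and KRT18 (means of 2123, 589 and 489 CPM). ESR1 had means of 362 CPM in MM134 parental cells, 150 in LTED-A, 265 in LTED-E, 466 in LTED-D and 535 in LTED-B. GATA3 had 165 in MM134 parental cells, 106 in LTED-A, 81.0 in LTED-E, 190 in LTED-D and 162 in LTED-B. In SUM44F, ESR1 had 570 and GATA3 212, against 1398.5 and 447 in SUM44 LTED-A and 1355 and 383 in LTED-B. Replicate 1 of SUM44F stood apart. Its 5 fibroblast markers (COL1A1, COL1A2, COL3A1, DCN, LUM) summed to 350.1 CPM against 8.07 and 9.27 in the other SUM44F libraries, and its PTPRC, which encodes the leukocyte antigen CD45, stood at 2.60 CPM against 0.332 and 0.423. Leaving it out kept the sign of 39 of the 40 log2 fold changes that the members had in comparisons with SUM44F, moved none by more than 0.15, and left the number of members past the thresholds as it was in all 4 comparisons. The exception in sign was S100A9 in SUM44PE, at -0.06 with the library and 0.01 without it. In these bulk samples fewer cells with a transcript and less transcript per cell cannot be told apart.

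In MM134, the 10 genes were for the most part higher in LTED cells than in parental cells. In SUM44, most were lower, with S100P as the exception in both variants. A gene is counted here as past the thresholds when its fold change was over 1.5 and its adjusted p under 0.001 in edgeR's quasi-likelihood test. By that count, 9 of the 10 were higher and 0 lower in MM134 LTED-A, where 10.5% of the 26061 genes tested were higher and 9.82% lower. In LTED-B, 7 were higher and 1 lower (8.11% and 7.75% of all genes). In LTED-D, 9 were higher and 0 lower (9.63% and 7.95%), and in LTED-E 8 were higher and 0 lower (8.71% and 10.3%). In SUM44 LTED-A, 1 was higher and 5 lower, among 26834 genes of which 6.39% were higher and 7.28% lower. In SUM44 LTED-B, 1 was higher and 7 lower (8.69% and 8.57%). Since the genes were chosen with these comparisons known, nothing is read from the counts.

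The median log2 fold change over the 10 genes was 4.88 in MM134 LTED-A, 4.33 in LTED-E, 2.80 in LTED-D and 1.45 in LTED-B, and -0.56 in SUM44 LTED-A and -1.01 in SUM44 LTED-B. The median over all genes tested lay between -0.09 and 0.02 in these 6 comparisons. The variants of 1 line share their parental libraries, so their values stand side by side and are not independent of each other.

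**Figure D1:**
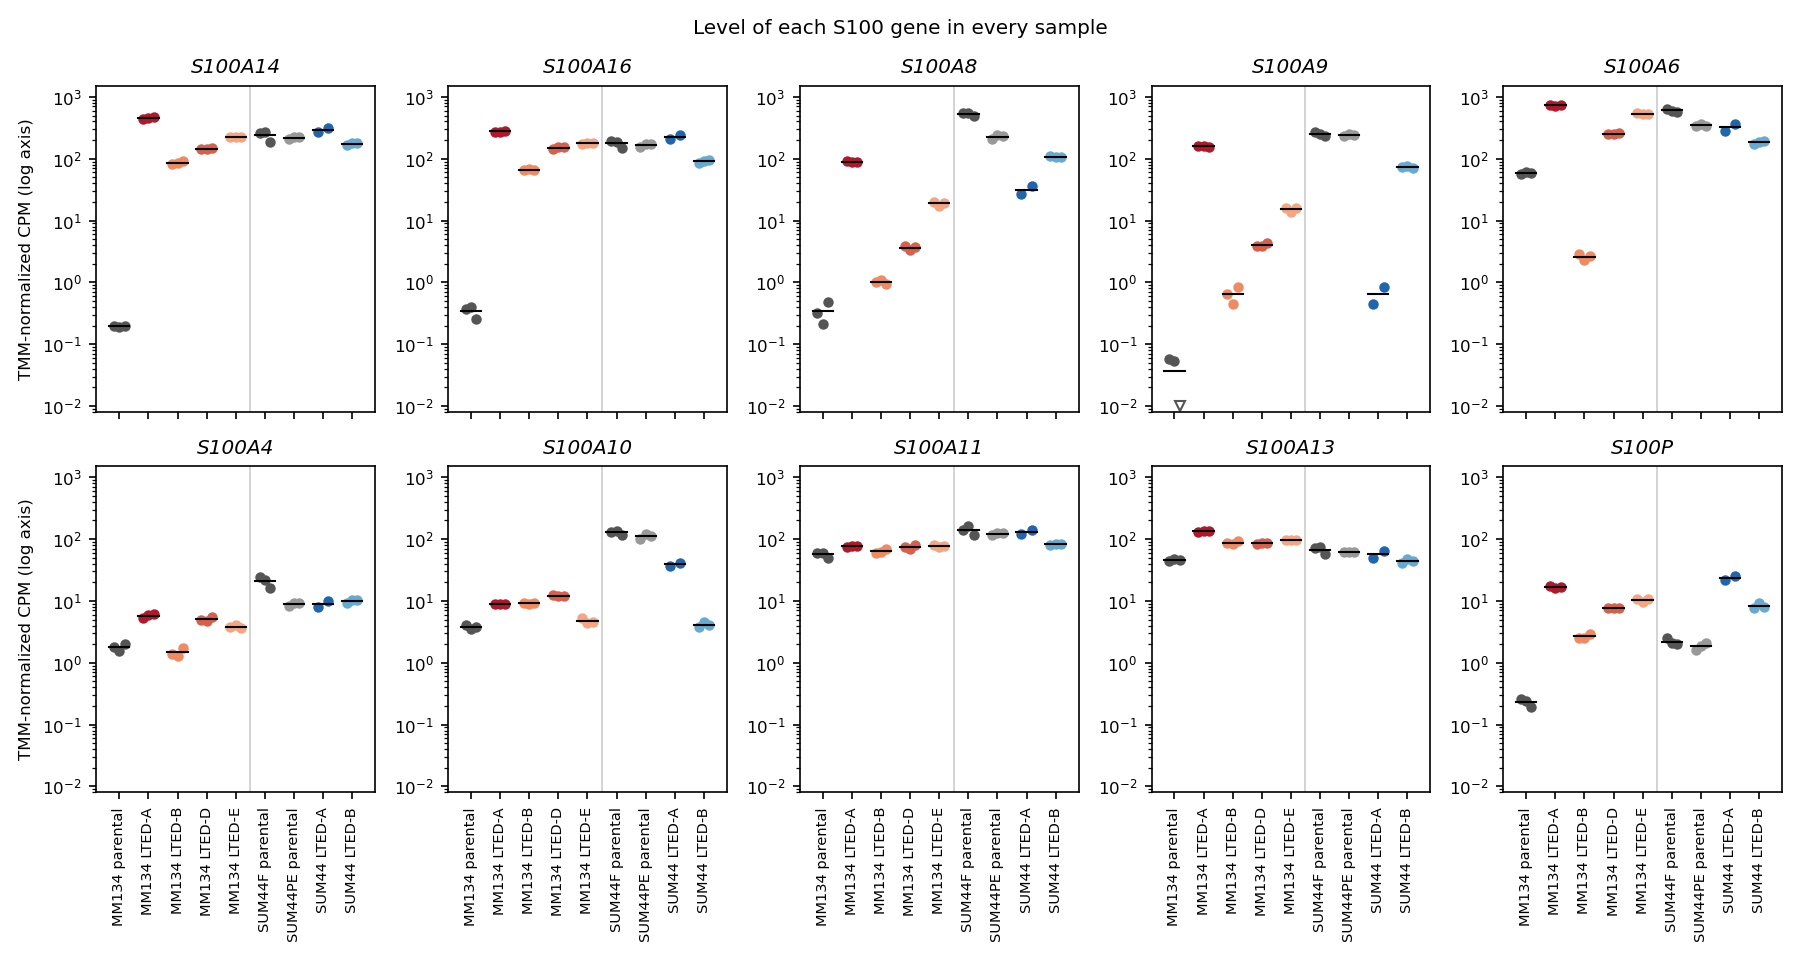
TMM-normalized CPM of the 10 S100 genes on a log axis, with 1 point per sample and a line at the group mean; the open triangle marks a library without a count for S100A9, and SUM44 LTED-A has 2 samples. S100A14, S100A16, S100A8, S100A9 and S100P lie below 1 CPM in MM134 parental cells, and S100A6 in MM134 LTED-B stands at 2.62 ± 0.307 CPM (mean ± SD, n = 3), below its parental level.

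S100A14 and S100A16 lie next to each other on chromosome 1, and their levels followed each other across the groups. Both are epithelial members of the family, and S100A14 is known for a calcium-binding loop that lacks some of the residues needed to hold calcium. In hg38 coordinates of GENCODE v44, S100A16 spans 153606886 to 153613145 and S100A14 spans 153614255 to 153616986, both on the minus strand, with 1109 bases between them. The bases upstream of their start sites are shown because the pair stood out for its shared levels. They are the 250 bases before the start of the canonical transcript in RefSeq's promoter table (GRCh38.p14), 5′ to 3′ on the gene's strand, at chr1:153616326-153616575 for S100A14 and chr1:153613138-153613387 for S100A16.
S100A14: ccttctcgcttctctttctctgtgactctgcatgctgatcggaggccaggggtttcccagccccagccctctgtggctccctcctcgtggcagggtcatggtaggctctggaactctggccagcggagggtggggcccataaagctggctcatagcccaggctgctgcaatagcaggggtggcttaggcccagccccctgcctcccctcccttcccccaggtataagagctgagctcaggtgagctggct
S100A16: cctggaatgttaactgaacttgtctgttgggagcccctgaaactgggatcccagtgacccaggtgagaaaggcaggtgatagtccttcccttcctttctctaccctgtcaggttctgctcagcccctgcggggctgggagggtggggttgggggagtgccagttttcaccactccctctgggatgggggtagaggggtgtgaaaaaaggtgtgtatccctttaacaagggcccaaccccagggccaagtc

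All 10 genes had an entry in that table, and for genes with several entries the window at the canonical start was taken. 6 motifs were searched on both strands. They were the AP-1 motif with the letters TGANTCA, the estrogen response element, made of GGTCA and its reverse complement spaced by 3 bases, the TATA box with the letters TATAAA, the GC box with the letters GGGCGG, the C/EBP motif with the letters TTGCNNAA and a forkhead motif with the letters TGTTTNC. None of these letters occur in the S100A14 and S100A16 windows, so both are printed without capitals. Of all 35116 windows of this length, 6.57% held the AP-1 motif, 0.0399% the estrogen response element, 10.7% the TATA box, 42.6% the GC box, 9.05% the C/EBP motif and 15.5% the forkhead motif. Of the 10 S100 windows, 0 held the AP-1 motif, the estrogen response element or the forkhead motif, 5 the TATA box, 4 the GC box and 1 the C/EBP motif. A match describes the letters of a window and is not a measured site.

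S100A14 had 7, 7 and 6 counts in the 3 MM134 parental libraries, which is 0.200, 0.189 and 0.194 CPM. The libraries of MM134 LTED-A held 437, 449 and 476 CPM, those of LTED-B 82.3, 86.3 and 90.8, those of LTED-D 145, 143 and 149 and those of LTED-E 221, 221 and 222. Every LTED library of MM134 was above every parental library, and the 4 variants did not overlap each other. The log2 fold change was 11.16 (SE 0.07) in LTED-A, 10.14 (SE 0.08) in LTED-E, 9.55 (SE 0.08) in LTED-D and 8.78 (SE 0.08) in LTED-B. With 20 counts in all in the parental libraries, the ratio of summed counts for LTED-A was 2318, with a counting interval (95%) of 1501 to 3795.

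In SUM44 the gene was already high in the parental cultures. S100A14 stood at 257, 268 and 189 CPM in SUM44F and 206, 226 and 225 in SUM44PE. SUM44 LTED-A had 271 and 310.4 CPM and LTED-B 169, 178 and 178. The fold changes were small and of opposite sign, with log2 values of -0.44 (SE 0.12) in LTED-B and 0.29 (SE 0.13) in LTED-A. MM134 LTED-A thus had the highest mean of all 9 groups, and MM134 LTED-E overlapped both SUM44 parental cultures.

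S100A16 showed the same order of the MM134 variants. Its parental libraries had 13, 15 and 8 counts (0.372, 0.404 and 0.259 CPM). LTED-A had 272, 274 and 284 CPM, LTED-E 175, 177 and 177, LTED-D 146, 152 and 154 and LTED-B 66.2, 67.3 and 65.4. Again no LTED library of MM134 reached down to the parental ones. Its log2 fold change was 9.61 (SE 0.06) in LTED-A, 8.98 (SE 0.06) in LTED-E, 8.75 (SE 0.06) in LTED-D and 7.56 (SE 0.07) in LTED-B.

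In SUM44F, S100A16 had 191, 189 and 149 CPM, against 153, 171 and 172 in SUM44PE, 206 and 242 in SUM44 LTED-A and 86.6, 90.9 and 94.3 in SUM44 LTED-B. LTED-A lay above and LTED-B below all SUM44F libraries. The fitted log2 fold change was 0.35 (SE 0.12) in SUM44 LTED-A. In LTED-B it was -0.96 (SE 0.10), a level 1.95-fold lower.

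Per length of exon, S100A14 exceeded S100A16 in 8 of 9 groups, by a mean log2 ratio of 0.37 ± 0.04 (SD, n = 3) in MM134 LTED-D at the least and 1.36 ± 0.03 (SD, n = 3) in SUM44 LTED-B at the most. Only in MM134 parental cells, where both rest on 6 to 15 counts, was the mean ratio below 0, at -0.35 ± 0.34 (SD, n = 3). Per length of the longest transcript, S100A14 was also below S100A16 in MM134 LTED-D, at 119.9 against 129 CPM per kb, so the direction there depends on the length used. Across the 9 group means of log2(CPM + 1), Pearson's r between both genes was 0.994, and 0.911 over the 8 groups without MM134 parental cells. Of 8502 genes compared, S100A16 had the highest r with S100A14, followed by MTUS1 (0.981) and AGR2 (0.967). These points share libraries and cell lines, so the coefficients are descriptions.

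**Figure D2:**
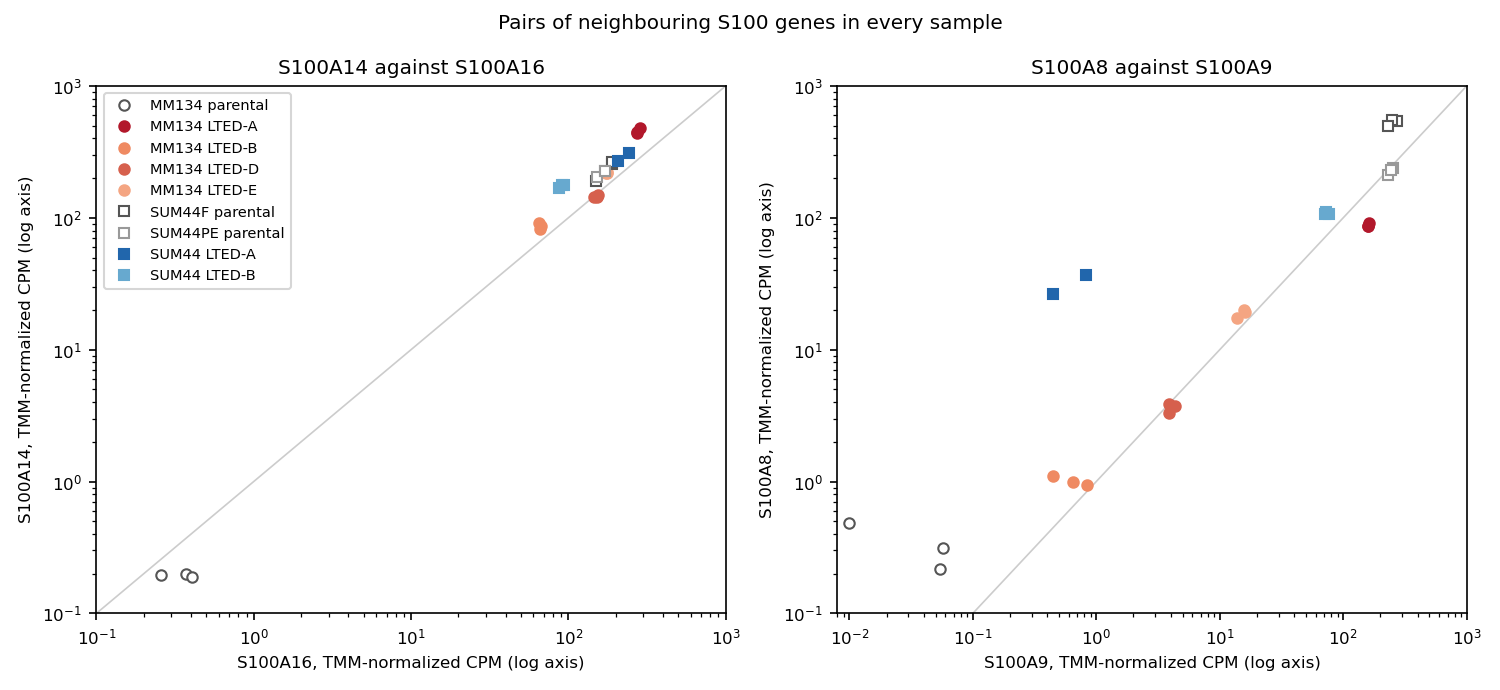
CPM of S100A14 against S100A16 (left) and of S100A8 against S100A9 (right) on log axes, with 1 point per sample and a grey line where both are equal; the MM134 parental library without an S100A9 count is drawn at the left edge. The first pair stays near 1 line over all groups, while in the second SUM44 LTED-A leaves it, with S100A8 at 31.5 ± 7.21 CPM and S100A9 at 0.639 ± 0.274.

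S100A8 and S100A9 encode the 2 subunits of calprotectin. Their genes lie on opposite strands of chromosome 1, S100A9 at 153357854 to 153361023 on the plus strand and S100A8 at 153390032 to 153391073 on the minus strand, with S100A12 between them. Both were higher in the MM134 variants and lower in the SUM44 variants, and in SUM44 LTED-A they parted. Their windows are shown for comparison with the pair above, at chr1:153391074-153391323 on the minus strand for S100A8 and chr1:153357604-153357853 on the plus strand for S100A9. Capitals mark the TATA box in both, which ends 24 bases before the start site in each, and a GC box (on the opposite strand) in S100A9. No 2 matches overlap.
S100A8: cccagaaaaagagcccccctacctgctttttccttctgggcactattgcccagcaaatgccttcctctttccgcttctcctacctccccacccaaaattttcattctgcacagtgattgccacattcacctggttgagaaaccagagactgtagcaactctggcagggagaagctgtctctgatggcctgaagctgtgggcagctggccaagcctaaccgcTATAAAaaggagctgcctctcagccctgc
S100A9: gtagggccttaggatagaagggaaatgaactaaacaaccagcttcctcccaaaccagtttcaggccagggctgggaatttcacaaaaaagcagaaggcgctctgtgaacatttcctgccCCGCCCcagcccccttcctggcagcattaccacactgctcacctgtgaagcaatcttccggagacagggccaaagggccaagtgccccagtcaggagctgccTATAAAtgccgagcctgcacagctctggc

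S100A8 had 11, 8 and 15 counts in the MM134 parental libraries (0.314, 0.216 and 0.486 CPM). It stood at 91.5, 87.0 and 87.1 CPM in LTED-A, 20.1, 17.3 and 19.4 in LTED-E, 3.84, 3.31 and 3.74 in LTED-D and 0.998, 1.11 and 0.945 in LTED-B. The 4 variants lay apart from each other and above the parental libraries, with LTED-B nearest to them. The log2 fold change was 8.05 (SE 0.11) in LTED-A, 5.84 (SE 0.12) in LTED-E, 3.46 (SE 0.17) in LTED-D and 1.62 (SE 0.22) in LTED-B.

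The highest S100A8 levels of all groups were those of SUM44F, at 547, 556 and 500.1 CPM. SUM44PE had 209.8, 239.7 and 232 CPM, SUM44 LTED-A 26.4 and 36.6 and SUM44 LTED-B 111, 107 and 108. All samples of SUM44PE and of both variants were below all SUM44F libraries. Its log2 fold change against SUM44F was -4.08 (SE 0.15) in LTED-A, -2.30 (SE 0.11) in LTED-B and -1.25 (SE 0.11) in SUM44PE.

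S100A9 was at or below 2 counts in every MM134 parental library (counts of 2, 2 and 0), so its fold changes in MM134 rest on a sum of 4 counts. LTED-A held 161, 160.2 and 157 CPM, LTED-E 15.8, 13.8 and 15.951, LTED-D 3.9045, 3.87 and 4.34 and LTED-B 0.650, 0.449 and 0.845. The ratio of summed counts to parental cells was 4112 (95% counting interval 1606 to 15092) in LTED-A, 390.3 (152 to 1434) in LTED-E, 105 (40.6 to 386) in LTED-D and 16.6 (6.23 to 62.3) in LTED-B. The order of the variants was that of S100A8, and the order of S100A14, S100A16 and S100P as well: LTED-A, then LTED-E, LTED-D and LTED-B.

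In SUM44F, S100A9 had 273, 247 and 233 CPM and in SUM44PE 229, 252 and 246, which overlap. SUM44 LTED-B held 73.1, 76.8 and 71.0 CPM. SUM44 LTED-A held 0.445 and 0.833, from 18 and 95 counts. The level was 354-fold lower in LTED-A (log2 fold change -8.47 (SE 0.20)) and 3.41-fold lower in LTED-B (-1.77 (SE 0.11)). The LTED-A value was -9.13 without the averaged replicates 2 and 3 of that variant, which left replicate 1 alone, with 18 counts.

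The balance of both subunits therefore differed between groups. Per length of exon, the log2 ratio of S100A8 to S100A9 was 5.02 ± 0.29 (SD, n = 2) in SUM44 LTED-A, against 0.46 ± 0.09 (SD, n = 3) in SUM44F, -0.08 ± 0.07 (SD, n = 3) in SUM44 LTED-B and -0.73 ± 0.03 (SD, n = 3) in SUM44PE. In MM134 LTED-E had -0.32 ± 0.04 (SD, n = 3) and LTED-A -1.49 ± 0.03 (SD, n = 3). No other group came near the SUM44 LTED-A value, apart from the MM134 parental libraries, whose ratios of 1.13 to 4.32 rest on 0 to 15 counts per gene.

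Myeloid cells carry much S100A8 and S100A9, so their markers are given here. MPO had at most 3 counts in every sample. PTPRC had group means of 0.129 to 0.287 CPM outside SUM44F. The summed level of the 8 myeloid markers was lowest in MM134 parental cells (2.40 to 2.95 CPM) and higher in LTED-E (18.6 to 19.4), LTED-A (10.6 to 11.5), LTED-D (9.003 to 9.65) and LTED-B (5.24 to 6.14). In SUM44 it ran from 42.6 to 57.3 CPM in SUM44F, 31.0 to 32.1 in SUM44PE, 22.8 to 24.2 in LTED-A and 53.8 to 58.5 in LTED-B. Most of it was the integrin gene ITGAM in 7 of the 9 groups, which passed the thresholds as higher in all 4 MM134 variants and lower in both SUM44 variants. Its mean was 0.350 CPM in MM134 parental cells and 16.5 in LTED-E, and 42.0 in SUM44F and 10.8 in SUM44 LTED-B, where the sum was mainly CSF3R (43.1 CPM). CSF3R, the receptor for granulocyte colony-stimulating factor, was higher in SUM44 LTED-B (log2 fold change 3.48, SE 0.17, adjusted p = 8.8e-08, edgeR) and in MM134 LTED-A (1.12, SE 0.17, adjusted p = 1.8e-05, edgeR). FCGR3B, a neutrophil marker, was higher in SUM44 LTED-A (2.29, SE 0.38, adjusted p = 8.4e-04, edgeR) and SUM44 LTED-B (2.84, SE 0.36, adjusted p = 9.1e-05, edgeR). This was the opposite direction to S100A8 and S100A9 there, with means of 0.237 CPM in SUM44F, 1.13 in LTED-A and 1.69 in LTED-B. Whether these marker calls hold in other processing settings was not tested. Without SUM44F replicate 1, the SUM44F library with the most PTPRC, the log2 fold changes of S100A8 were -4.06 and -2.29 in SUM44 LTED-A and LTED-B. Those of S100A9 were -8.41 and -1.71. The other SUM44F libraries also held some PTPRC, and the part of myeloid RNA in the levels of both genes was not tested.

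S100A6 and S100A4 lie near each other on the minus strand of chromosome 1. S100A6 (calcyclin), at 153534599 to 153536244, encodes a cytosolic protein found in dividing cells. S100A4, at 153543613 to 153550136, encodes a partner of non-muscle myosin that is known for its link to metastasis. S100A6 had the highest mean of the 10 genes per length of exon in 6 of the 9 groups (7 per length of the longest transcript), and it was the gene that split the MM134 variants.

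S100A6 stood at 55.9, 60.8 and 59.6 CPM in MM134 parental libraries. It was 727, 722 and 736 in LTED-A, 255, 253 and 259 in LTED-D and 546, 531 and 525 in LTED-E. In LTED-B it was 2.90, 2.29 and 2.66, from 125, 97 and 107 counts. LTED-A, LTED-D and LTED-E lay above and LTED-B below all parental libraries. The fitted log2 fold change was 3.63 (SE 0.04) in LTED-A, 2.13 (SE 0.04) in LTED-D, 3.19 (SE 0.04) in LTED-E and -4.48 (SE 0.06) in LTED-B, a level 22.4-fold below parental cells.

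In SUM44, S100A6 was highest in SUM44F at 645, 591 and 571 CPM. SUM44PE had 339.9, 361 and 334 CPM, SUM44 LTED-A 285 and 369 and SUM44 LTED-B 172, 189.8 and 191. All were below all SUM44F libraries, by log2 values of -0.82 (SE 0.10) for SUM44PE, -0.88 (SE 0.12) for LTED-A and -1.71 (SE 0.11) for LTED-B. SUM44PE and SUM44 LTED-A overlapped, so against the culture that was not adapted to serum LTED-A was not apart.

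S100A4 was among the lowest of the 10 genes per length, at rank 9 or 10 in every group but MM134 parental and MM134 LTED-B cells. In MM134 it stood at 1.80, 1.54 and 2.01 CPM in parental cells, 5.34, 6.01 and 6.04 in LTED-A, 3.78, 4.13 and 3.59 in LTED-E, 4.97, 4.66 and 5.53 in LTED-D and 1.39, 1.30 and 1.74 in LTED-B. LTED-B overlapped the parental libraries and the other three variants lay above them. The log2 fold change was 1.70 (SE 0.12) in LTED-A, 1.52 (SE 0.13) in LTED-D and 1.12 (SE 0.13) in LTED-E, and -0.26 (SE 0.14) in LTED-B.

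S100A4 was 24.7, 21.7 and 15.967 CPM in SUM44F, 8.35, 9.11 and 9.32 in SUM44PE, 7.90 and 9.86 in SUM44 LTED-A and 9.39, 10.3 and 10.4 in SUM44 LTED-B. The 3 last groups were all below SUM44F, by log2 values of -1.23 (SE 0.15) in SUM44PE, -1.05 (SE 0.15) in LTED-B and -1.22 (SE 0.18) in LTED-A. Fibroblasts carry much S100A4, and the SUM44F library with fibroblast markers had the highest S100A4 of its group. Without it the log2 value was -1.08 in SUM44PE, -0.91 in SUM44 LTED-B and -1.08 in SUM44 LTED-A. In MM134 the fibroblast markers summed to 20.7 to 35.4 CPM in parental cells and 8.07 to 27.4 in the variants, and COL1A1 fell in all 4 variants (adjusted p of 9.7e-07 at most, edgeR).

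S100A10 and S100A11 form a separate stretch of the cluster, at 151982915 to 151993859 and 152032506 to 152047907 on the minus strand. S100A10 (p11) joins annexin A2 at the plasma membrane and does so without calcium. S100A11 joins annexin A1. S100A10 differed widely between groups, while S100A11 was among the most even of the 10.

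S100A10 was low in MM134, at 4.03, 3.56 and 3.72 CPM in parental cells, 8.96, 9.0016 and 8.91 in LTED-A, 5.36, 4.36 and 4.51 in LTED-E, 12.6, 11.9 and 11.8 in LTED-D and 9.28, 8.90 and 9.27 in LTED-B. Each variant lay above the parental libraries, LTED-E by little. Its log2 fold change was 1.24 (SE 0.08) in LTED-A, 0.34 (SE 0.08) in LTED-E, 1.69 (SE 0.08) in LTED-D and 1.28 (SE 0.08) in LTED-B. In SUM44 it went the other way.

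SUM44F had 132, 136 and 117 CPM of S100A10 and SUM44PE 101, 119.9 and 112. SUM44 LTED-A had 36.3 and 41.6 CPM and SUM44 LTED-B 3.85, 4.55 and 4.02. The variants did not overlap each other or either parental culture. The level was 3.28-fold lower in LTED-A (log2 fold change -1.71 (SE 0.10)) and 31.0-fold lower in LTED-B (-4.95 (SE 0.10)), where it overlapped MM134 parental cells and MM134 LTED-E.

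S100A11 ranged from a mean of 56.3 ± 5.66 CPM (SD, n = 3) in MM134 parental cells to 141 ± 24.4 (SD, n = 3) in SUM44F. The log2 fold changes in MM134 were 0.43 (SE 0.06) in LTED-A, 0.46 (SE 0.06) in LTED-E, 0.41 (SE 0.06) in LTED-D and 0.19 (SE 0.06) in LTED-B, none over the fold threshold. In SUM44, LTED-A overlapped SUM44F and LTED-B, at 79.1, 83.3 and 83.0 CPM, lay 1.72-fold below it. GENCODE names 8 pseudogenes of S100A11, and how the estimate divided reads among such copies was not tested.

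S100A13 takes part in the release of FGF1 from cells and lies at 153618787 to 153631360 on the minus strand, overlapping S100A1 on the plus strand. The strand setting of the counting is not given in the sources used here, so reads from both genes may not have been told apart. S100A13 was 43.6, 47.5 and 46.2 CPM in MM134 parental libraries, 128, 133 and 137 in LTED-A, 98.1, 94.9 and 95.1 in LTED-E, 81.9, 85.0 and 87.9 in LTED-D and 85.6, 83.1 and 91.9 in LTED-B. All variants lay above parental cells, with log2 fold changes of 1.53 (SE 0.04) in LTED-A, 1.08 (SE 0.04) in LTED-E, 0.91 (SE 0.04) in LTED-D and 0.93 (SE 0.04) in LTED-B.

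In SUM44, S100A13 was 71.6, 73.7 and 57.6 CPM in SUM44F, 61.2, 61.8 and 62.8 in SUM44PE, 41.0, 46.9 and 43.5 in LTED-B and 49.7 and 63.7 in LTED-A. LTED-A overlapped SUM44F, and LTED-B lay below it with a log2 fold change of -0.63 (SE 0.11). The means of all 4 MM134 variants were above those of both SUM44 parental cultures, which held for S100P as well and for no other member.

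S100P, which binds ezrin and was first described in placenta, is the only one of the 10 on another chromosome, at 6693878 to 6697170 on the plus strand of chromosome 4. It was also the only one that was higher in all 6 LTED variants. In MM134 it had 9, 9 and 6 counts in the parental libraries (0.257, 0.243 and 0.194 CPM), and 17.3, 15.9 and 16.5 CPM in LTED-A, 10.7, 9.70 and 10.6 in LTED-E, 7.62, 7.63 and 7.80 in LTED-D and 2.55, 2.53 and 2.96 in LTED-B. No variant overlapped another or the parental libraries.

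The fitted log2 fold change of S100P was 6.13 (SE 0.11) in MM134 LTED-A, 5.47 (SE 0.12) in LTED-E, 5.04 (SE 0.12) in LTED-D and 3.51 (SE 0.14) in LTED-B. In SUM44, it stood at 2.49, 2.07 and 1.99 CPM in SUM44F, 1.60, 1.90 and 2.09 in SUM44PE, 21.5 and 25.7 in SUM44 LTED-A and 7.74, 9.31 and 8.01 in SUM44 LTED-B. Both parental cultures overlapped each other and lay below both variants. The level was 10.9-fold higher in LTED-A (log2 fold change 3.44 (SE 0.14)) and 3.83-fold higher in LTED-B (1.94 (SE 0.13)).

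**Figure D3:**
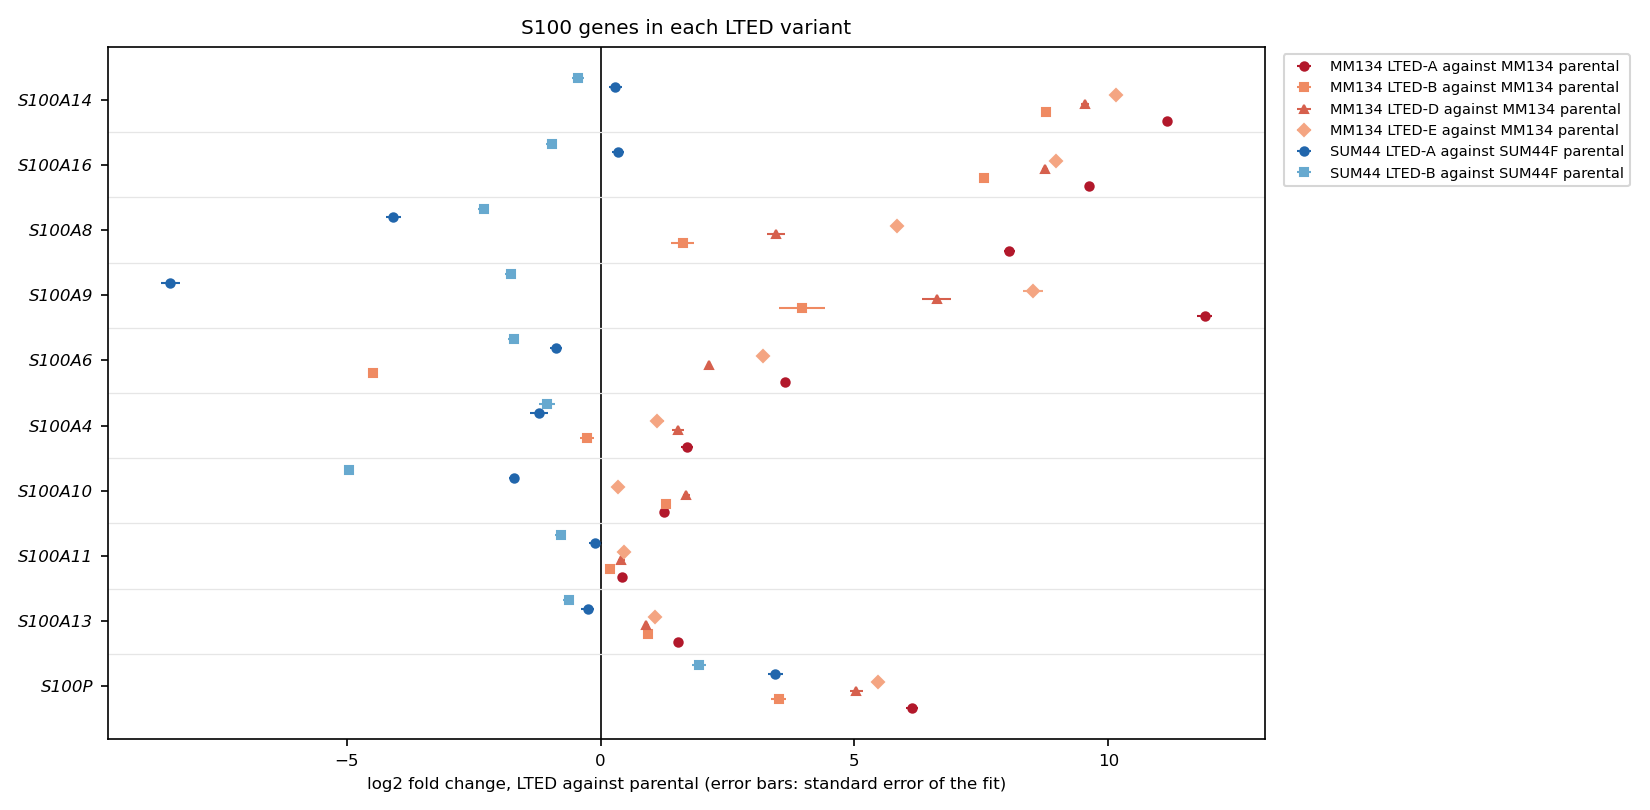
Log2 fold change of each S100 gene in the 6 LTED variants against their parental cells, with bars for the standard error of the fit. All MM134 points but those of S100A6 and S100A4 in LTED-B lie to the right of 0, and in SUM44 both points lie to the right for S100P alone.

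The parental cultures differed among themselves. MM134 parental cells had a lower mean than SUM44F in all 10 genes. Of these, 9 were past the thresholds, among 29608 genes of which 19.1% were higher and 19.0% lower in MM134. The log2 difference was -12.57 (SE 0.19) for S100A9, -10.65 (SE 0.15) for S100A8, -10.24 (SE 0.16) for S100A14 and -8.97 (SE 0.13) for S100A16. It was -0.56 (SE 0.08) for S100A13, the smallest of the 10. The lines come from different donors and differ in culture history, which cannot be told apart.

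SUM44PE against SUM44F, 2 cultures of 1 line, had 0 of the 10 genes higher and 3 lower past the thresholds (2.85% and 2.72% of 27457 genes). The 3 were S100A4, S100A6 and S100A8. These are 3 of the genes that were also below SUM44F in both SUM44 variants, and the comparisons share the SUM44F libraries.

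Levels of different genes can be compared per length of exon. The 10 genes together had 174.9 CPM per kb in MM134 parental cells, 1874 in LTED-A, 1068 in LTED-E, 664 in LTED-D and 266 in LTED-B. In SUM44 they had 2349 in SUM44F, 1641 in SUM44PE, 809 in LTED-B and 1058 in LTED-A. The sum was thus higher in each MM134 variant and lower in each SUM44 variant than in its parental culture.

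The leading gene changed with the group. S100A11 gave 49.6% of the sum in MM134 parental cells and 37.1% in LTED-B. S100A6 gave 40.0% in LTED-A, 39.7% in LTED-D and 51.5% in LTED-E, and also led in SUM44F (26.4%), SUM44 LTED-A (31.8%) and SUM44 LTED-B (23.5%). S100A9 led in SUM44PE with 25.8%, where S100A6 was first per length of the longest transcript. In SUM44F, S100A8 (599.9 CPM per kb) was close to S100A6 (620.4).

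**Figure D4:**
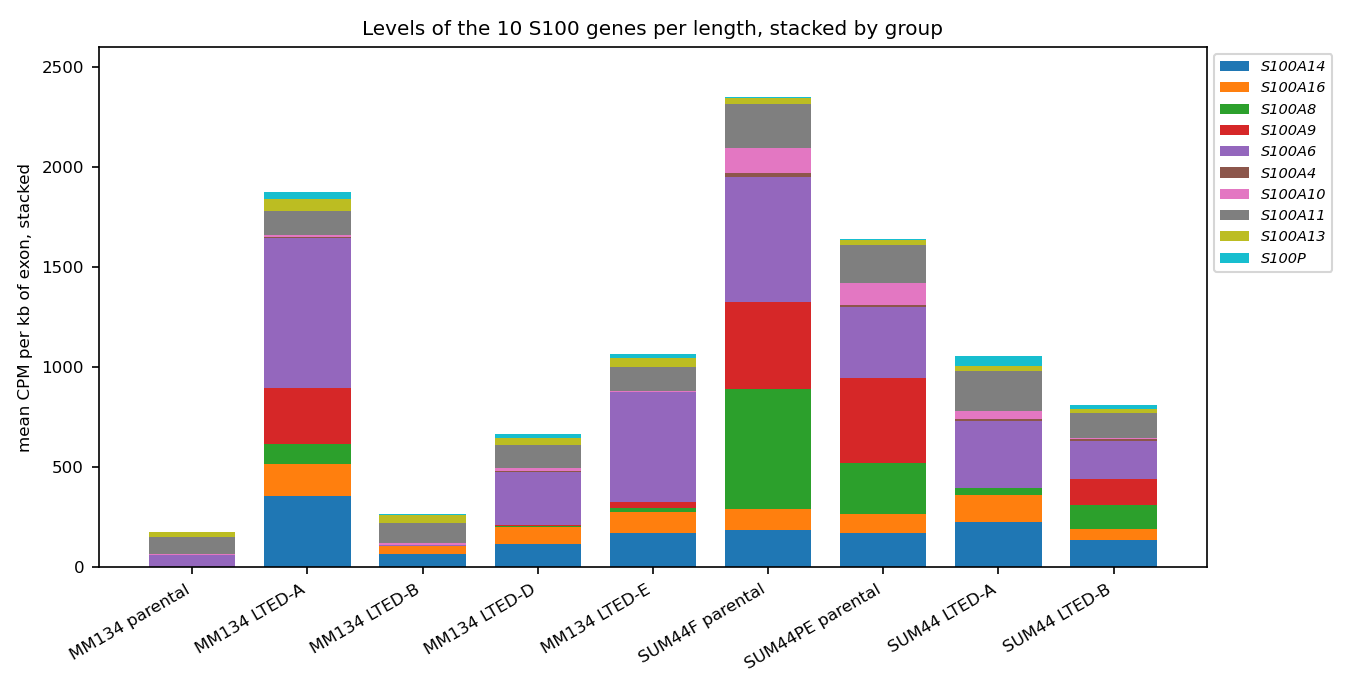
Mean CPM per kb of exon of the 10 S100 genes, stacked by group. The bars reach 174.9 in MM134 parental cells and 1874 in MM134 LTED-A, and 2349 in SUM44F against 1058 and 809 in the SUM44 variants.

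11 other S100 genes were in the table, S100A1, S100A2, S100A3, S100A5, S100A7, S100A7A, S100A7L2, S100A12, S100B, S100G and S100Z. They had been left out of the 10 with results in view, so they are no independent sample of the family. Only 3 of them in MM134 and 5 in SUM44 had enough counts to be tested. Of those 3, 3 were higher in LTED-A, 1 in LTED-B, 2 in LTED-D and 2 in LTED-E, and 0 were lower. Of all genes, 8.11% to 10.5% were higher and 7.75% to 10.3% lower in these comparisons. In the MM134 parental libraries S100A2 had 2, 2 and 0 counts and S100A7 had 1 in each. Both were tested because of their counts in the variants, so they could hardly have been called lower. Of the 5 in SUM44, 5 were lower in LTED-A and 4 in LTED-B, and 0 were higher. Of all genes, 7.28% were lower and 6.39% higher in SUM44 LTED-A, and 8.57% and 8.69% in SUM44 LTED-B.

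S100A7 (psoriasin), a protein of inflamed skin and some breast carcinomas, had the widest range. It had 1 count in each MM134 parental library and a mean of 1.17 CPM in LTED-A (log2 fold change 5.21, SE 0.42, adjusted p = 3.5e-09, edgeR). It was also higher in LTED-E (4.29, SE 0.47, adjusted p = 3.0e-07, edgeR) and in LTED-D (2.80, SE 0.59, adjusted p = 5.6e-04, edgeR), a call lost in 7 of 12 other settings. In LTED-B, the value of 1.51 (SE 0.70) did not pass, at an adjusted p of 0.117 by edgeR. In SUM44 the mean was 236 CPM in SUM44F, 55.6 in SUM44PE, 5.48 in LTED-B and 0.702 in LTED-A. The fall was 329.6-fold in LTED-A (adjusted p = 5.2e-10, edgeR) and 42.9-fold in LTED-B (adjusted p = 2.3e-10, edgeR).

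S100A7A and S100A12, neighbours of S100A7 and S100A8, were also lower in both SUM44 variants. S100A7A fell from a mean of 5.80 CPM in SUM44F to 0.259 in LTED-B (adjusted p = 4.0e-07, edgeR) and 0.0263 in LTED-A (adjusted p = 3.1e-07, edgeR). Its log2 fold change in LTED-A was -7.20. It was -11.35 without the averaged replicates 2 and 3 of SUM44 LTED-A. That left replicate 1 alone, with 0 counts of S100A7A, so the size of -11.35 was not measured. S100A12 fell from 2.16 CPM to 0.328 in LTED-B (adjusted p = 3.5e-05, edgeR) and 0.0853 in LTED-A (adjusted p = 1.1e-05, edgeR). Both had at most 8 counts in every MM134 library.

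S100A2 was higher in MM134 LTED-A (log2 fold change 3.46, SE 0.46, adjusted p = 2.9e-06, edgeR) and LTED-E (2.92, SE 0.50, adjusted p = 6.6e-05, edgeR), against 4 counts in all in parental cells. It was lower in SUM44 LTED-B (-2.26, SE 0.28, adjusted p = 7.8e-05, edgeR). In SUM44 LTED-A the value was -1.74 (SE 0.30), with an adjusted p of 9.6e-04 by edgeR that passed the threshold narrowly and lost it in 8 of 12 other settings. S100A1, the family member of heart muscle, rose in MM134 LTED-A (1.49, SE 0.15), LTED-B (1.83, SE 0.15) and LTED-D (1.93, SE 0.15), with adjusted p of 6.1e-08 at most by edgeR. It fell in SUM44 LTED-A (-1.44, SE 0.14, adjusted p = 2.1e-05, edgeR), and in LTED-B the value was 0.22 (SE 0.12, adjusted p = 0.163, edgeR). S100A1 overlaps S100A13, as said above.

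S100A3, S100A7A, S100A12 and S100G passed as lower in MM134 parental cells than in SUM44F, as did S100A1, S100A2 and S100A7, that is 7 of the 7 tested. Of all genes, 19.0% were lower in that comparison. Apart from S100A1, these genes had at most 2 counts in every MM134 parental library. They were tested because of their counts in other groups, so they could hardly have been called higher in MM134 parental cells. S100A7, S100A7A and S100A12 were lower in SUM44PE than in SUM44F, 3 of the 6 tested, where 2.72% of all genes were lower. The calls of S100A3 and S100G, and that of S100A12 in SUM44PE, were lost in 5 or 6 of 13 other settings. S100A3 lies inside S100A4 on the same strand and had at most 19 counts in a library. Its log2 difference of -3.79 was -6.11 without MM134 parental replicate 2. That library held the only S100A3 count of its group, so the size of -6.11 was not measured. S100A5, S100A7L2, S100B and S100Z had too few counts to be tested in any of the 8 comparisons.

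Of 12 genes beside the S100 genes on chromosome 1, NPR1 alone was higher past the thresholds in the MM134 variants, in all 4 of them, and 0 were lower. Of all genes, 8.11% to 10.5% were higher in these comparisons, so 1 in 12 is near the background. NPR1, a natriuretic peptide receptor, rose from 0.0892 CPM to 0.573 to 1.13 CPM, with log2 fold changes of 2.67 to 3.66 and an adjusted p of 3.5e-07 at most by edgeR. In SUM44, 11 of the 12 were tested. THEM4 and TDRKH were lower in both variants, and in LTED-B THEM5 was also lower and ILF2 higher. That is 2 of 11 lower in LTED-A and 3 in LTED-B, where 7.28% and 8.57% of all genes were lower. Higher were 0 and 1, where 6.39% and 8.69% of all genes were higher. THEM4, a thioesterase, fell from 11.8 CPM to 5.21 and 5.69 (adjusted p = 1.7e-05 and 1.2e-05, edgeR). TDRKH changed by -0.69 and -0.60 on the log2 scale (adjusted p = 4.5e-04 and 3.6e-04, edgeR), calls that were lost in 7 of 12 and 7 of 13 other settings. SUM44PE parental cells were also below SUM44F in TDRKH, by -0.59 (adjusted p = 2.3e-04, edgeR), a call lost in 8 of 13. The median log2 fold change of the 12 genes lay between -0.08 and 0.11 in the 6 LTED comparisons.

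**Figure D5:**
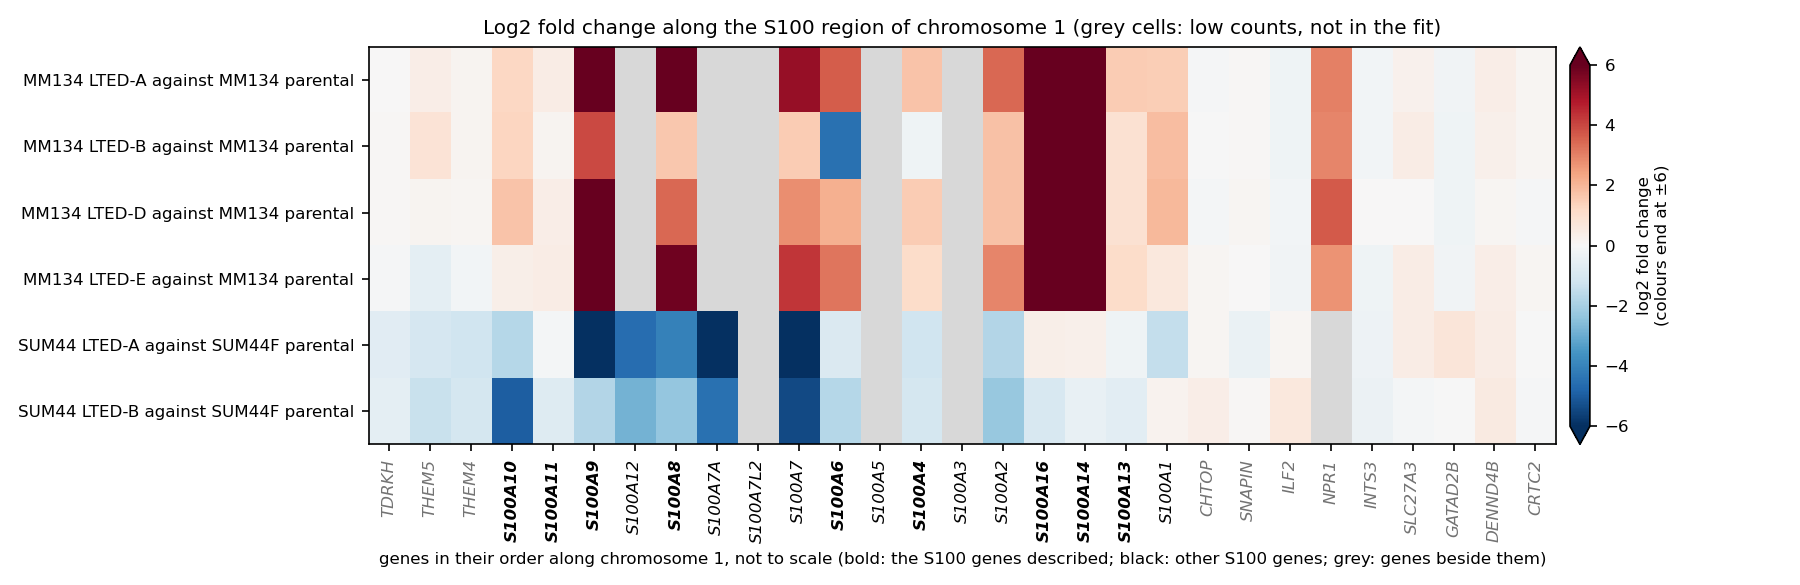
Log2 fold change of the S100 genes and 12 neighbours in their order along chromosome 1, by LTED variant; colours end at 6 in either direction, and grey cells had too few counts to be tested. In the MM134 rows the S100 genes that were tested are above 0 except S100A6 (-4.48) and S100A4 (-0.26) in LTED-B, and among the neighbours in these rows NPR1 alone passed the thresholds.

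Among 11 binding partners of S100 proteins inside the cell, 3 were higher and 1 or 2 lower in each MM134 variant, and 1 was higher and 3 lower in each SUM44 variant. Of all genes tested, 8.11% to 10.5% were higher and 7.75% to 10.3% lower in the MM134 variants, and 6.39% to 8.69% higher and 7.28% to 8.57% lower in the SUM44 variants. ANXA1, the partner of S100A11, rose in MM134 from a mean of 0.276 CPM to 10.7 in LTED-A, 3.79 in LTED-E, 2.06 in LTED-D and 2.90 in LTED-B, with an adjusted p of 4.7e-10 at most by edgeR. In SUM44 it fell from 23.4 CPM in SUM44F to 0.0456 in LTED-B (adjusted p = 1.2e-09, edgeR) and 0.0422 in LTED-A (adjusted p = 5.3e-09, edgeR). SUM44PE parental cells, at 7.89 CPM, were also below SUM44F (log2 fold change -1.57, adjusted p = 1.2e-06, edgeR).

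ANXA2, the partner of S100A10, fell in all 6 variants. In MM134 its mean was 75.7 CPM in parental cells, 42.0 in LTED-A, 2.72 in LTED-E, 3.18 in LTED-D and 46.1 in LTED-B (adjusted p of 1.0e-08 at most, edgeR). In SUM44 it was 397.9 CPM in SUM44F, 227 in LTED-B (adjusted p = 7.1e-05, edgeR) and 188 in LTED-A (adjusted p = 3.3e-05, edgeR). S100A10 thus went with ANXA2 in SUM44 and against it in MM134. LTED-D had the highest S100A10 and nearly the lowest ANXA2 of the MM134 groups. LTED-E, with the lowest ANXA2, had the least raised S100A10 of the variants (log2 fold change 0.34, under the fold threshold).

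ANXA11, which S100A6 binds, and EZR (ezrin), which S100P binds, were higher in all 4 MM134 variants. ANXA11 rose by 0.67 to 1.12 on the log2 scale (adjusted p of 1.5e-12 at most, edgeR) and EZR by 0.66 to 1.28 (adjusted p of 1.9e-13 at most, edgeR). In SUM44 LTED-A, EZR passed at 0.64 (SE 0.10, adjusted p = 6.3e-04, edgeR), a call lost in 7 of 12 other settings.

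Of 7 receptors for S100 proteins outside the cell, 6 were tested, and ALCAM was the one that moved in the same direction in several variants. It rose in MM134 LTED-A, LTED-D and LTED-E by 0.64, 0.87 and 1.35 on the log2 scale and in SUM44 LTED-A and LTED-B by 1.59 and 1.04 (adjusted p of 5.9e-06 at most, edgeR). In MM134 LTED-B the value was 0.15 (SE 0.04), under the fold threshold. SUM44PE parental cells also had more ALCAM than SUM44F, by 0.81 (adjusted p = 1.5e-05, edgeR). CD36 and AGER passed as lower in MM134 LTED-D, at -1.19 (SE 0.17, adjusted p = 8.2e-06, edgeR) and -0.64 (SE 0.13, adjusted p = 5.0e-04, edgeR). In that variant 2 of the 6 receptors were thus lower and 1 higher, where 7.95% of all genes were lower and 9.63% higher. Whether the single calls of CD36 and AGER hold in other settings was not tested. CD36 had values of about the same size in SUM44 LTED-A (-1.22, SE 0.23, adjusted p = 0.0019, edgeR) and SUM44 LTED-B (-1.11, SE 0.20, adjusted p = 0.0012, edgeR), which missed the threshold.

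The genes whose means across the 9 groups were most like those of a member were mostly not of the family. For S100A8 they were CSTB (Pearson's r 0.967), SPHK1 (0.963) and PGLYRP4 (0.945), the last a neighbour on chromosome 1. For S100A9 they were IFNGR1 (0.927), NEK5 (0.907) and S100A8 (0.896). For S100A16 they were S100A14 (0.994), MTUS1 (0.972) and SDCBP (0.963). For S100A6 the values were lower, with CNKSR1 at 0.926, DGAT2 at 0.856 and BRWD3 at 0.849.

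S100A10 was most like ZNF425 (0.978), CNIH3 (0.974) and FYCO1 (0.959), and S100A11 most like KRT8 (0.977), MID2 (0.974) and HIVEP1 (0.972). KRT8 is a keratin of luminal cells. S100A4 was most like FZD5 (0.952), TMEM51 (0.9497) and WARS2 (0.947), and S100A13 most like SLC35F5 (0.979), HLA-DMA (0.966) and PLEKHS1 (0.961). S100P was most like SLC39A1 (0.932), BOLA2 (0.932) and TEAD4 (0.926). Each coefficient is over 9 points that share 2 cell lines, and nothing about function follows from it.

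Among the members themselves, r across the 9 groups was 0.910 for S100A4 with S100A8, 0.896 for S100A8 with S100A9, 0.887 for S100A10 with S100A11 and 0.865 for S100A11 with S100A4. S100A13 had the lowest values, at -0.18 with S100A4 and -0.16 with S100A11. S100P had -0.11 with S100A10 and 0.06 with S100A9, and 0.72 with S100A14. Without MM134 parental cells, S100A6 had 0.828 with S100A14 and 0.839 with S100A16, against 0.453 and 0.462 with all 9 groups.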

How the data were processed

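RNA of 27 wells from 9 cultures was sequenced from a stranded total RNA kit. The authors estimated transcripts with Salmon 0.6.0 against hg38 and Ensembl 82 and deposited expected counts per gene, unscaled. Ensembl identifiers were given symbols from GENCODE v44 (56434 of 60619 matched). Expected counts were rounded. Replicates 2 and 3 of SUM44 LTED-A were averaged. Genes passed filterByExpr, counts were scaled by TMM, and edgeR 4.0.16 (R 4.3.3) gave quasi-likelihood F tests with Benjamini-Hochberg adjustment. Thresholds were a fold over 1.5 and an adjusted p under 0.001. The scripts were tested on simulated counts. The members and lists were chosen with earlier results of these data known, and the genes named by likeness were the 3 with the highest Pearson's r. Counting intervals are exact and cover counting error only. Other settings were DESeq2 1.42.0, RLE scaling, other filters, a replicate block and leaving out samples. Protein sequences were not used here.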

Additional observations from a re-analysis of the deposited data

Results flagged for a closer look

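Several genes had every sample of one variant above its parental libraries and every sample of another variant below its own, and these differences between variants or lines were not tested. In SUM44, the log2 fold change of S100A14 was -0.44 in LTED-B but 0.29 in LTED-A, and that of S100A16 was -0.96 and 0.35. In MM134, S100A6 had 3.63 in LTED-A, 2.13 in LTED-D and 3.19 in LTED-E, and -4.48 in LTED-B.

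Between the lines, S100A10 had 1.24, 0.34, 1.69 and 1.28 in MM134 LTED-A, LTED-E, LTED-D and LTED-B, and -1.71 and -4.95 in the LTED-A and LTED-B variants of SUM44. S100A8 had 8.05, 5.84, 3.46 and 1.62 in the MM134 variants in the same order, and -4.08 and -2.30 in the SUM44 variants. S100A9 had 11.90, 8.52, 6.62 and 3.96 in MM134, on 4 parental counts, and -8.47 and -1.77 in SUM44. Among the genes outside the 10, S100A1 had -1.44 in SUM44 LTED-A and 0.22 in LTED-B.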

How the results depend on the processing

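Of the alternative values of the members' fold changes, 959 stayed within the spread between replicates and 6 moved beyond it, all in SUM44 LTED-A after a sample was left out. Leaving out 1 of 3 samples shifts the mean of a group by less than this spread. In the groups with 3 samples, such values could therefore hardly have been counted as moved. With at least 10 counts asked of every sample, members past the thresholds were 4, 3, 4 and 3 in MM134 LTED-A, LTED-E, LTED-D and LTED-B and 5 between MM134 parental cells and SUM44F, since the filter drops genes near 0 in parental cells. Other S100 genes past them were then 1, 1 and 0 in MM134 LTED-A, LTED-D and LTED-E, 2 and 1 in SUM44 LTED-A and LTED-B and 1 between the parental lines, and genes beside the cluster 0 in the 4 MM134 variants, 0 in SUM44PE and 1 between the parental lines. DESeq2 gave 1 other S100 gene in LTED-D and 1 in LTED-E. With a replicate block there was 1 in LTED-D, and 1 gene beside the cluster in SUM44 LTED-A. Replicate numbers did not pair the samples (6 of 23 correlations over 0.1). With only the 2 groups compared there was 1 other S100 gene in LTED-D, and beside the cluster 1 in SUM44 LTED-A and 0 in SUM44PE. RLE scaling gave 1 in SUM44 LTED-A. Leaving out a sample gave 1 to 2 other S100 genes in LTED-D, and beside the cluster 1 to 3 in SUM44 LTED-B, 1 to 4 in LTED-A, 0 to 1 in SUM44PE and 2 to 4 between the parental lines. Apart from the filter, the cause was not tested. Of the 30 genes named by likeness, 24 were shared with log2(CPM + 0.1) and 9 with Spearman's rho. Genes with few parental counts, S100A9 above all, have the least precise folds.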
